A study of Mus musculus with 8 samples.

Results

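7SK, RMRP and the RNase P RNA are short nuclear RNAs made by RNA polymerase III, and their genes in the mouse are Rn7sk, Rmrp and Rpph1. All CLIP peaks that overlapped 1 of these 3 genes by at least 1 bp on the same strand were taken, with gene models from GENCODE vM21 on the mouse build mm10. This gave 12 of the 29555 deposited peaks, 1 for each RNA in each of 4 libraries. Within each library the peaks were picked by position, but the RNAs themselves were chosen with earlier results of these data known, so their high reads and background are a description.

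CLIP-seq, in which proteins are crosslinked to RNA with ultraviolet light and the RNA pulled down with them is sequenced, was used here for MBD5 and MBD6 in mouse embryonic stem (mES) cells. Both proteins have a methyl-CpG-binding domain and are partners of the histone H2A deubiquitinase BAP1. The series holds 8 samples, 2 each of Flag-MBD5 CLIP, Flag-MBD5 Input, Flag-MBD6 CLIP and Flag-MBD6 Input, and the peak lists of the 4 CLIP libraries were analysed. All cells were wild-type mES cells that carried a stably overexpressed human MBD5 or MBD6 coding sequence with a Flag tag, next to their own mouse proteins, and were kept under hygromycin with LIF, CHIR99021 and PD0325901. The labels name a Flag antibody for the CLIP samples and no antibody for the inputs, whereas their shared extraction text names an MBD6 antibody and embryo material, and the methods of the study name the Flag antibody and cultured cells. Neither an untagged line nor an immunoprecipitate from one was analysed here, so RNA held by the beads or antibody cannot be told apart from RNA held by the tagged protein.

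7SK RNA holds the elongation kinase P-TEFb inactive in a particle with HEXIM and LARP7. RMRP is the RNA of RNase MRP, which cuts ribosomal RNA precursors, and Rpph1 encodes the RNA of RNase P, which trims the 5′ ends of tRNA precursors. The RNase P and MRP RNAs share most of their protein partners and are thought to have a common ancestor, while 7SK is unrelated to them.

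Rn7sk lies at chr9:78175303-78175633 and is annotated as a miscellaneous RNA of 331 nt. Rmrp lies at chr4:43492788-43493058 as a ribozyme of 271 nt, and a lincRNA record of 281 nt covers the same place. Rpph1 lies at chr14:50807449-50807767 as a ribozyme of 319 nt. All of them are single-exon genes on the minus strand, and positions are counted in nt from the 5′ end of the RNA. The stretches below are those in which the reads counted at each summit began, which is where the CLIP signal was highest. They were taken from the GENCODE transcripts, with T for U and every CpG in capitals, because CpG is the dinucleotide for which the protein domain is named. 
Rn7sk nt 130 to 279: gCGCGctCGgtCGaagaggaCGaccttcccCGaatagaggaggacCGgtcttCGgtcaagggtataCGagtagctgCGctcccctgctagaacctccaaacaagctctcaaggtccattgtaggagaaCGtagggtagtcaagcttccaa
Rmrp nt 1 to 147: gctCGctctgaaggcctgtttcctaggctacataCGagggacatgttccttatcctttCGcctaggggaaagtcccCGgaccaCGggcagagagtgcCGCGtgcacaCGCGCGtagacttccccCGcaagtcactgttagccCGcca
Rpph1 nt 155 to 304: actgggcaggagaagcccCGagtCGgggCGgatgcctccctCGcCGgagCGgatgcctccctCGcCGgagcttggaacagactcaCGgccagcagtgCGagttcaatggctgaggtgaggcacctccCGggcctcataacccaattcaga

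The whole RNAs held 20 CpG in Rn7sk, 26 in Rmrp and 23 in Rpph1. Their CpG content was 0.72, 0.93 and 0.64 times that expected from their C and G content, against a median of 0.22 over 3886 annotated small RNA transcripts, and lay at the 88.6th, 94.0th and 85.8th percentile of these. C made up 29.9% of Rn7sk, 33.9% of Rmrp and 33.2% of Rpph1, against a median of 21.2%. Whether CpG or C content bears on binding by MBD5 or MBD6 was not tested here. The RNAs had little sequence in common with each other. The longest stretch shared by Rmrp and Rpph1 was 9 nt, and Rn7sk shared 8 nt with Rpph1 and 7 nt with Rmrp. Rpph1 held a tandem repeat of 21 nt, GCGGATGCCTCCCTCGCCGGA, at nt 182 to 202 and again at nt 203 to 223, inside the printed stretch. The longest repeat was 10 nt in Rn7sk and 7 nt in Rmrp.

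The deposited fold enrichment of a peak is 1 more than the reads at its summit, divided by 1 more than the local background rate there, and its −log10 p is a Poisson value from the same pair. Solving both for each peak gave the number of CLIP reads at the summit and the background rate. The lowest background rate on a strand also gave the number of CLIP reads on it, which for the minus strand was 219843 and 230033 with Flag-MBD5 and 454024 and 513581 with Flag-MBD6. Of the background rates above the lowest, 57.5% to 65.3% per library fell on multiples of a fixed step. This step is the worth of 1 read of a control library scaled to the CLIP depth. All 12 rates on the RNAs did so, and their control reads at the summit were recovered as well. The control is not named in the sources used here. Intervals and floors in this text cover counting error only.

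All 3 RNAs had a peak in every library, and no peak lay on the opposite strand of any of them. A peak in all 4 libraries was found for 8.68% of 3882 annotated small non-coding RNA genes and 4.42% of all 55450 genes. The summit stayed in place in each RNA (see the map of peaks along the RNAs). In Rn7sk it lay at nt 279, 279, 278 and 279 in Flag-MBD5 replicates 1 and 2 and Flag-MBD6 replicates 1 and 2, the order used throughout. In Rmrp it lay at nt 147, 147, 147 and 148, and in Rpph1 at nt 304 in all 4 libraries. All 3 RNAs thus had summits within 1 nt across the libraries, which was so for 1.74% of the 3566 sites with a peak in all 4 libraries. Of these sites, 166 had a mean of at least 100 reads, as the RNAs did. The share among those was not counted, so the part of read number in this was not tested. As reads were extended to 150 bp, a summit at nt 304 counts reads that began anywhere from nt 155 on.

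**Figure D1:**
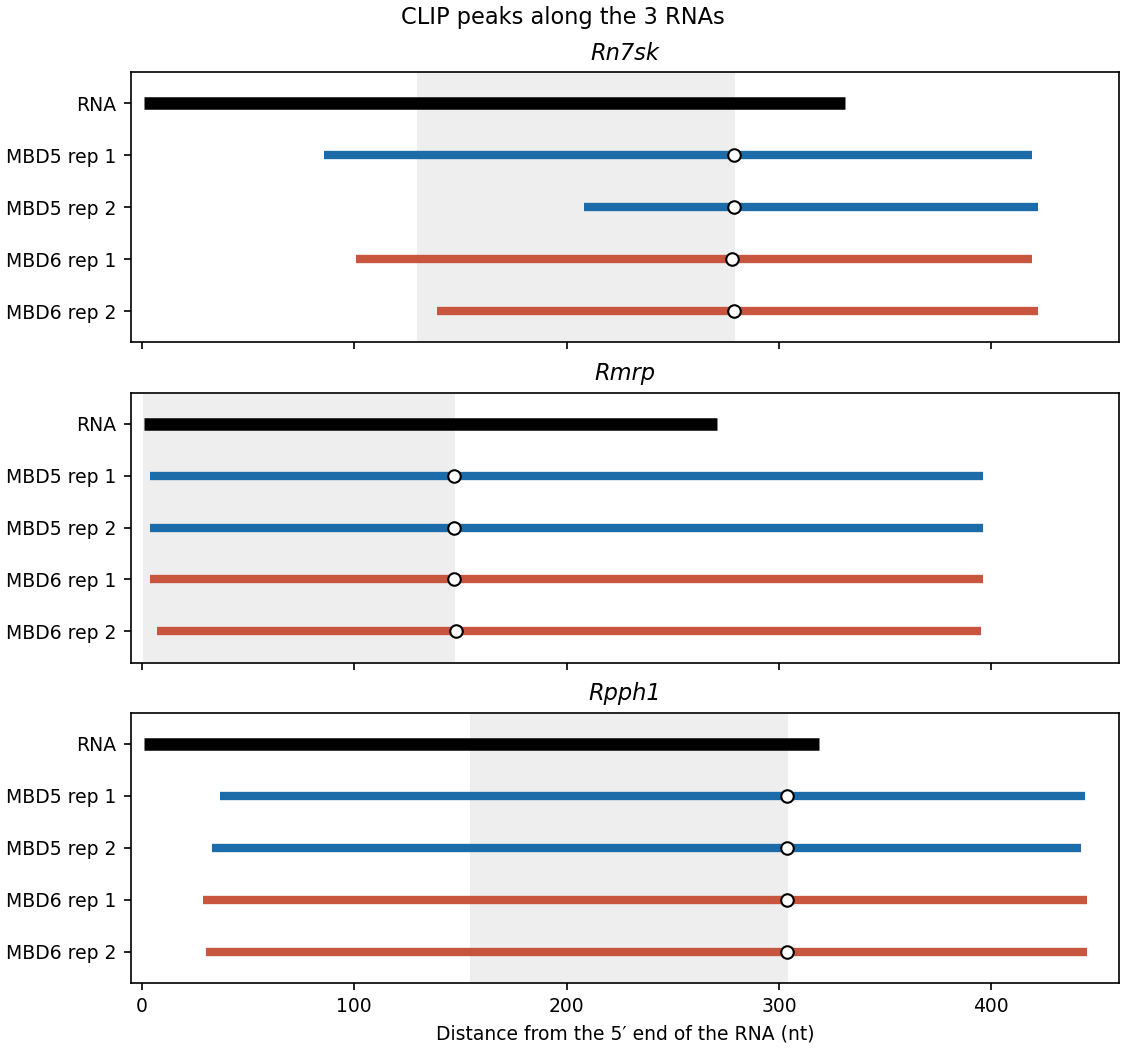
Peaks (coloured bars) and summits (circles) along Rn7sk, Rmrp and Rpph1, with distance from the 5′ end of the RNA in nt on the x axis and 1 line per library. The black bar is the annotated RNA and the grey band the stretch in which reads counted at the summit began. Summits stay within 1 nt, the 5′ edge moves only in Rn7sk by more than 8 nt, and all 3′ edges lie beyond the RNA because reads were extended to 150 bp.

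The extent of the peaks separated Rn7sk from the other 2 RNAs. Peaks on Rn7sk were 334, 215, 319 and 284 bp wide and began at nt 86, 208, 101 and 139, so their 5′ edge moved by 122 nt between libraries while their 3′ edge lay at nt 419 to 422. Peaks on Rmrp were 393, 393, 393 and 389 bp wide and began at nt 4, 4, 4 and 7, close to the 5′ end of the RNA. Peaks on Rpph1 were 408, 410, 417 and 416 bp wide and began at nt 37, 33, 29 and 30. Peaks thus spanned nearly the whole length of Rmrp and Rpph1 in every library. As reads were extended to 150 bp, coverage by the reads themselves was not measured. The median peak of a library was 164 to 167 bp wide. The 3′ edges lay at nt 395 to 396 in Rmrp and nt 442 to 445 in Rpph1, past the ends of the RNAs. The last read starts thus lay at or past nt 246 to 247 in Rmrp and nt 293 to 296 in Rpph1. Peak edges depend on where the signal crosses the threshold, so widths also follow depth and background.

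CLIP reads at the summit were most numerous on Rmrp. Rmrp had 219, 242, 257 and 251 reads, Rpph1 had 141, 146, 162 and 177, and Rn7sk had 112, 119, 139 and 153. The order Rmrp, Rpph1, Rn7sk was the same in all 4 libraries, each count being over a stretch of 147 to 150 nt of read starts. The median peak had 16, 16, 20 and 21 reads, and the strongest peak of each library 598 to 630. In percentiles of its library's peaks, Rn7sk lay between 98.3 and 98.9, Rmrp between 99.7 and 99.8 and Rpph1 between 99.1 and 99.3. Up to 5 reads were kept per start, which allows at most 750 reads at a summit.

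The background rate, in reads expected at the summit, was also among the highest of all peaks. It was 22.4, 23.1, 34.2 and 40.2 on Rmrp, 19.3, 18.5, 26.8 and 27.7 on Rn7sk, and 10.2, 9.25, 18.1 and 16.3 on Rpph1. Rmrp ranked between the 11th and 13th highest rate of its library, Rn7sk between the 22nd and 37th, and Rpph1 between the 40th and 60th. All 12 rates were whole numbers of control reads in the 150 bp around the summit, within 0.02 of a read. Rmrp had 57, 55, 70 and 74 control reads, Rn7sk 49, 44, 55 and 51, and Rpph1 26, 22, 37 and 30. The control thus held these RNAs too, with Rmrp above Rn7sk and Rn7sk above Rpph1 in each library. The control window reached 75 nt to either side of the summit and so past the 3′ end of Rn7sk and Rpph1, whereas CLIP reads were counted by their start in the 150 nt before the summit, so both counts refer to different stretches.

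Fold enrichment, which sets the reads against this background, placed the RNAs in another order. It was 12.7, 14.3, 8.56 and 10.3 on Rpph1, 9.40, 10.1, 7.34 and 6.11 on Rmrp, and 5.58, 6.16, 5.03 and 5.36 on Rn7sk, so that Rpph1 was highest and Rn7sk lowest in all 4 libraries. The control window covered unlike lengths of the RNAs, in Flag-MBD5 replicate 1 nt 229 to 319 of Rpph1, 72 to 222 of Rmrp and 204 to 331 of Rn7sk. What part this has in the order was not tested. The median peak had a fold of 10.4 to 11.1. Rn7sk lay between the 1.98th and 7.34th percentile of fold in its library, Rmrp between the 6.07th and 47.4th, and Rpph1 between the 29.8th and 72.0th. Rn7sk thus stood near the top of each library by reads and near the bottom by fold enrichment (see the plot of reads against background rate). Among the 58 to 147 peaks per library with a background rate of at least 9, where the median fold was 5.56 to 6.66, Rn7sk lay between the 34.3rd and 48.0th percentile, Rmrp between the 57.5th and 75th and Rpph1 between the 71.6th and 85.3rd.

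**Figure D2:**
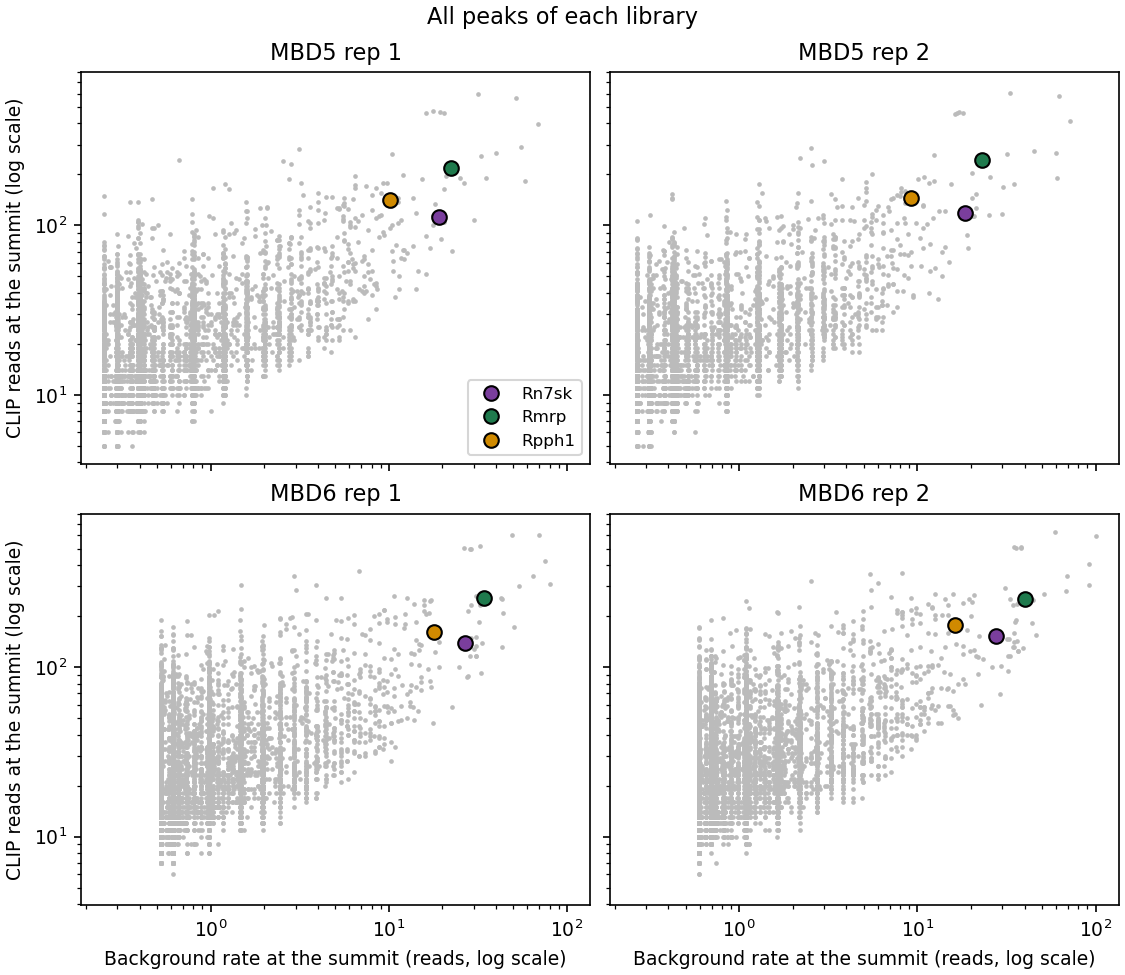
CLIP reads at the summit (y axis, log scale) against the background rate there in reads (x axis, log scale) for all peaks of each library (grey), with Rn7sk, Rmrp and Rpph1 marked. The 3 RNAs sit at the upper right, with rates of 9.25 to 40.2 and 112 to 257 reads.

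Reads over the scaled control, with no pseudocount, were 13.8 (95% interval 9.04 to 21.9), 15.8 (10.0 to 26.0), 8.97 (6.25 to 13.2) and 10.9 (7.34 to 16.6) on Rpph1. On Rn7sk they were 5.82 (4.12 to 8.31), 6.44 (4.52 to 9.31), 5.18 (3.77 to 7.21) and 5.52 (4.00 to 7.73). The exact binomial intervals of Rpph1 and Rn7sk lay apart in both Flag-MBD5 libraries and overlapped in both Flag-MBD6 libraries. On Rmrp the values were 9.78 (7.28 to 13.3), 10.5 (7.78 to 14.3), 7.53 (5.76 to 9.95) and 6.24 (4.80 to 8.20), and their intervals overlapped those of Rpph1 in every library. The intervals do not cover the unlike control windows of the RNAs.

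Replicates of a protein differed by no more than sampling noise. Sites were picked for at least 60 reads in each library of the opposite protein, and at these the replicates' chi-square averaged 0.518 for Flag-MBD5 and 0.870 for Flag-MBD6, where independent sampling gives about 1. At the 3 RNAs it was between 0.00785 and 0.342 in Flag-MBD5, and 0.0543, 2.74 and 0.102 at Rn7sk, Rmrp and Rpph1 in Flag-MBD6. The replicates of each protein were therefore counted as 1 sample, and no test between the proteins was made. With 2 libraries against 2, an exact permutation test could not go below p = 0.33. Intervals below are 95% counting intervals as for 1 library per protein.

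In reads per 1000000 CLIP reads of the minus strand (RPM), each RNA was lower in Flag-MBD6 than in Flag-MBD5. Rmrp had 996 and 1052 RPM with Flag-MBD5 against 566 and 489 with Flag-MBD6. Rpph1 had 641 and 635 against 357 and 345, and Rn7sk had 509 and 517 against 306 and 298. The libraries of the 2 proteins did not overlap for any of the RNAs, but the share of all sites for which this holds was not counted. The log2 difference, Flag-MBD6 minus Flag-MBD5, was −0.96 (−1.21 to −0.70) for Rmrp, −0.86 (−1.18 to −0.54) for Rpph1 and −0.77 (−1.12 to −0.41) for Rn7sk. The sites in all 4 libraries had a median of −0.34, and the RNAs stood at the 11.4th, 15.7th and 20.7th percentile of them. None of the 3 RNAs was 2-fold or more higher in Flag-MBD5, as 9.84% of sites were, or in Flag-MBD6, as 0.841% were. For Rmrp the call in Flag-MBD5 rests on 1 library, since the log2 difference was −1.07 without Flag-MBD6 replicate 1, and its interval spans −1. Sites with many reads were lower in Flag-MBD6 as a group. Over the 166 sites with a mean of at least 100 reads, a comparison added after seeing the data, the median was −0.62 and Rmrp, Rpph1 and Rn7sk stood at the 15.4th, 23.2nd and 34.0th percentile.

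Control RPM at the same summits, per 1000000 control reads of the strand, were lower with Flag-MBD6 as well, by less than the counting interval for Rmrp and Rpph1. Rn7sk had 87.6 and 80.4 control RPM with Flag-MBD5 against 59.1 and 54.0 with Flag-MBD6, Rmrp had 102 and 100.5 against 75.2 and 78.3, and Rpph1 had 46.5 and 40.2 against 39.8 and 31.8. The log2 difference was −0.57 (−1.14 to −0.0027) for Rn7sk, −0.40 (−0.90 to 0.11) for Rmrp and −0.28 (−1.03 to 0.48) for Rpph1. After division by the control, the log2 difference in CLIP reads was −0.19 (−0.86 to 0.47) for Rn7sk, −0.56 (−1.13 to 0.0035) for Rmrp and −0.58 (−1.40 to 0.24) for Rpph1, and each of these intervals included 0 (see the plot of CLIP and control reads). In deposited fold enrichment the differences were −0.17, −0.54 and −0.52. The median site had 0.41, and the RNAs stood at percentiles 17.1, 5.59 and 5.96. Sites with many reads lay lower here too. Over the 166 sites with a mean of at least 100 reads, the comparison added after seeing the data, the median was −0.089. Among them Rn7sk, Rmrp and Rpph1 stood at percentiles 41.9, 17.2 and 18.4. Whether the amount of each RNA or its capture differed between the 2 cell lines cannot be told apart from these values. Up to 5 reads were kept per start. The strongest peak of each library had 598, 609, 606 and 630 reads, although the Flag-MBD6 libraries were deeper. What part this limit has in the lower RPM with Flag-MBD6 was not tested.

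**Figure D3:**
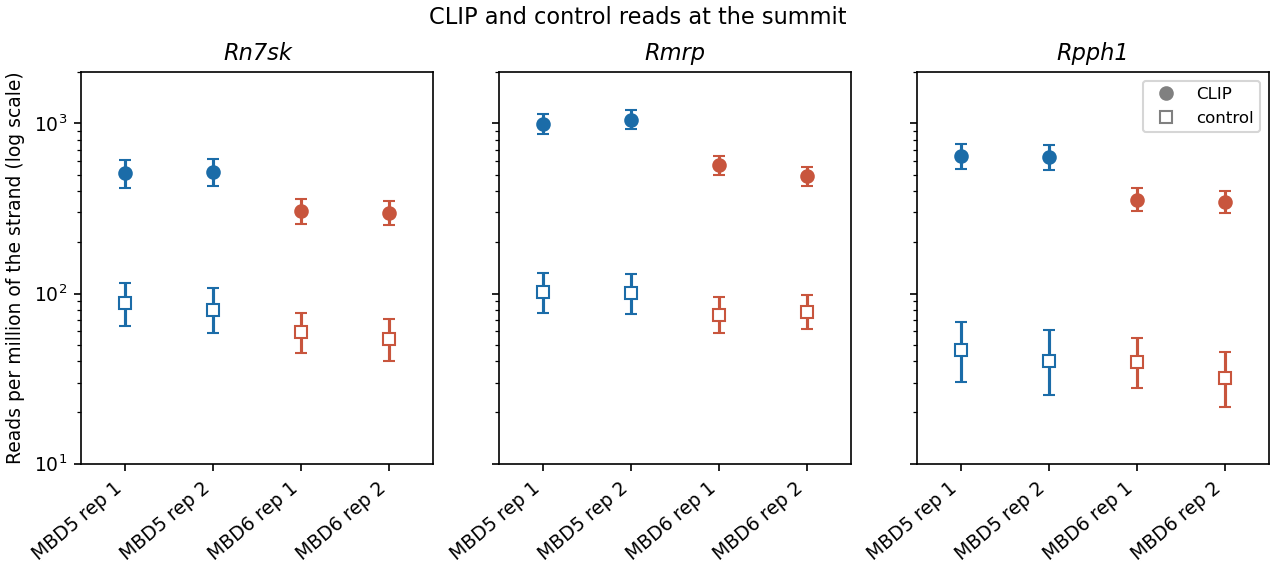
CLIP reads (circles) and control reads (open squares) at the summit, in RPM of the minus strand (y axis, log scale), in each library, with 95% Poisson counting intervals as bars. CLIP reads on Rmrp are 996 and 1052 RPM with Flag-MBD5 and 566 and 489 with Flag-MBD6, and the control points are also lower with Flag-MBD6.

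Near-identical copies bear on Rn7sk more than on the other RNAs. Reads with up to 10 equally good places in the genome were kept and given to 1 of them, and reads with more were dropped. Of the 302 stretches of 30 nt in Rn7sk, 222 (73.5%) also occurred letter for letter in another annotated gene, up to 11 genes at 1 position, against 19 of 290 (6.55%) in Rpph1 and 0 of 242 in Rmrp. All 212 stretches that began in the first 241 nt and ended there were shared, and the longest run without a copy held the stretches that began at nt 218 to 297. The Rn7sk summit, at nt 279, lay in this run, and in the 150 nt where its reads began 58.7% of the starts were of shared stretches.

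The annotation held 11 genes with a part of at least 100 nt that was at least 90% identical to Rn7sk, and 5 of them had a peak in some library. Gm24447, at chr15:93234363-93234700 and identical to Rn7sk nt 1 to 241, had peaks in all 4 libraries with 98, 97, 139 and 132 reads at the summit, against 112, 119, 139 and 153 on Rn7sk. Its fold enrichment was 13.3, 8.37, 14.2 and 8.74, above that of Rn7sk in every library. Its summit lay at nt 204, 203, 209 and 201 of its own sequence, inside the part that equals 7SK. Gm26315, which matched Rn7sk nt 5 to 242 with 99.6% identity, had 42, 32, 44 and 47 reads with summits at nt 201 to 204. Gm24146 and Gm26035 had peaks in 3 libraries with 28 to 44 and 20 to 32 reads, and Gm23973 in 2 libraries with 26 and 27 reads. Reads from the first 241 nt of 7SK and from the identical part of Gm24447 cannot be told apart (see the plot of Rn7sk and its copies). For the other copies, which are not fully identical, this holds only for reads that match both equally well. What part the copies have in the position of the Rn7sk summit and 5′ edge was not tested.

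**Figure D4:**
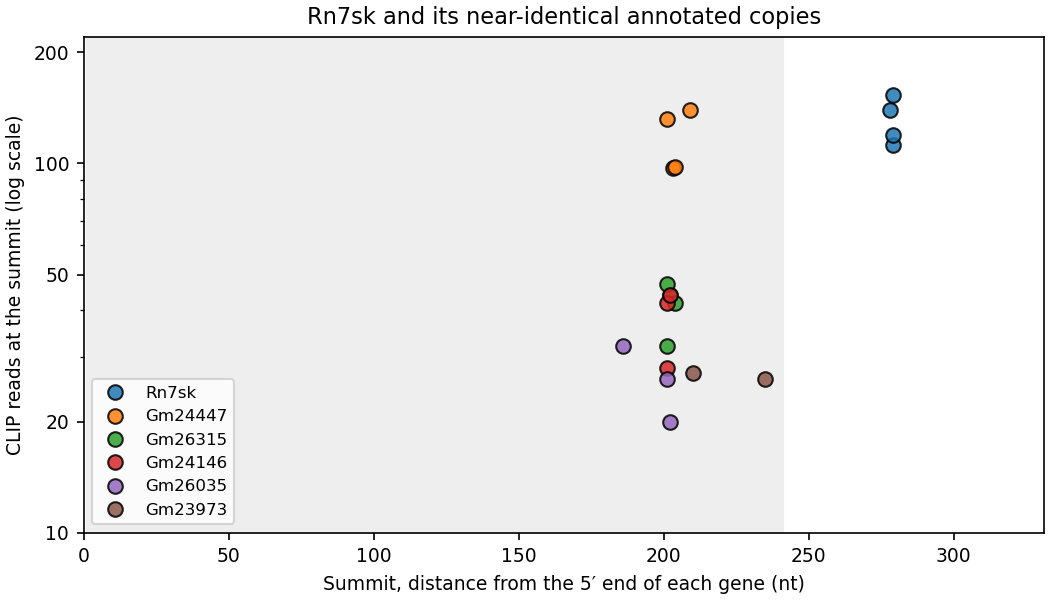
CLIP reads at the summit (y axis, log scale) against the position of the summit from the 5′ end of each gene in nt (x axis) for Rn7sk and 5 annotated near-copies, 1 point per library with a peak. The grey band is nt 1 to 241, in which Gm24447 is identical to Rn7sk. Rn7sk summits lie at nt 278 to 279, outside the band, and those of the copies at nt 186 to 235, inside it.

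Rpph1 had 2 annotated relatives with a peak, both ribozyme genes about 86% identical over 257 nt. Rprl3 had 42, 49, 58 and 56 reads and a fold of 3.47 to 5.48, and Rprl2 had 19 and 23 reads in the Flag-MBD6 libraries alone. Both were below Rpph1, which had at least 141 reads. An exon of Ccnb1ip1, a protein-coding gene on the same strand, covers nt 36 to 268 of Rpph1, and reads of both cannot be told apart there. The Rpph1 summit, at nt 304, lay outside that exon, but 114 of the 150 nt in which its reads began (76%) lay inside it. Rmrp had no annotated relative, and the gene it overlaps, Ccdc107, lies on the opposite strand.

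The sites most like each RNA in reads and background rate over the 4 libraries, by Euclidean distance on the log2 scale, were mixed. Nearest to Rn7sk were mt-Co1, a mitochondrial messenger RNA with 120 to 158 reads and a fold of 4.17 to 5.93, a site on chromosome 11 outside annotated genes, and Snord17, a C/D box snoRNA gene, with 119 to 149 reads and a fold of 3.85 to 7.98. Nearest to Rmrp were mt-Co2, with 195 to 295 reads, the 7SL gene Rn7s2, listed under the miRNA record Gm47299, on chromosome 12 with 184 to 192 reads, and a site on chromosome 17 outside annotated genes. Nearest to Rpph1 were AC115970.1 with 145 to 207 reads, Gm22973 with 132 to 234 and Gm28661 with 110 to 170.

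Of a hand-made list of other polymerase III RNAs, with 8 genes in the annotation, 2 had a peak in all 4 libraries, against 8.68% of small non-coding RNA genes. Both encode 7SL, the RNA of the signal recognition particle. Rn7s1 had 257, 263, 256 and 269 reads and a fold of 5.15 to 8.07, and Rn7s2 had 190, 192, 184 and 184 reads and a fold of 5.09 to 7.30. The peaks of Rn7s2 are those of the Gm47299 site nearest to Rmrp, since Gm47299 is a miRNA record inside the same locus. The 7SL genes are near-copies, so how their reads were split between them is uncertain. Rny1, a Y RNA bound by Ro60, had peaks in the Flag-MBD5 libraries alone, with 62 and 70 reads. The list does not hold all polymerase III RNA genes, and the following were chosen after their values were seen. Rn7s6, another annotated 7SL gene, had 189, 176, 199 and 203 reads and a fold of 10.8 to 16.9, and 36 of 180 annotated 5S rRNA gene records (20%) had a peak in all 4 libraries, with a mean of 12 to 110.75 reads. The authors removed ribosomal RNA reads before alignment, and the 5S records are near-copies.

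The genes of the proteins that work with these RNAs had fewer reads at their strongest summit. Of 7 genes for the 7SK particle, 1 had a peak in all 4 libraries, of 11 genes for RNase P and MRP proteins 1, and of 29 genes for the polymerase III machinery 8, against 7.82% of 21951 protein-coding genes. Hexim1, the P-TEFb inhibitor held by 7SK, had 12, 22, 34 and 39 reads, and Pop1, a shared protein of RNase P and MRP, had 14, 10, 30 and 29. The 8 polymerase III genes were Polr3d and Polr3g, which encode polymerase subunits, Gtf3c1, Gtf3c2 and Gtf3c3, which encode TFIIIC subunits, Bdp1, a TFIIIB subunit, Snapc4, a subunit of the complex that starts 7SK, RMRP and RNase P RNA transcription, and Ssb, the La protein that binds the 3′ ends of new polymerase III transcripts. Peaks were counted over the whole gene body, introns included. With the summit required in an exon, 6 polymerase III genes remained, without Polr3g and Gtf3c3. The share of protein-coding genes under this rule was not counted, so the 6 genes cannot be set against it. Gtf3c2 had the most reads of the 8 genes, 32, 29, 66 and 85 with a fold of 21.8 to 54.0, and Snapc4 had 11, 9, 21 and 32. Their fold enrichment, 7.54 to 20.2 on Hexim1 and 7.70 to 19.2 on Pop1, was above that of Rn7sk although their reads were fewer in every library.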

How the data were processed

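Peak lists of 4 CLIP libraries were analysed, and the 4 inputs were not used here as samples. Per the methods and labels, the authors collapsed identical reads, kept those over 15 nt, removed ribosomal RNA reads, aligned the rest to mm10 with bowtie 1.0.0 (up to 3 mismatches and 10 places, 1 reported), split them by strand with SAMtools 1.16.1 and called peaks with MACS2 on each library and strand, with reads extended to 150 bp, up to 5 duplicates, a genome size of 130000000 bp and q under 0.01. The deposited columns are a score (10 times −log10 q), the fold enrichment (a ratio), −log10 p, −log10 q and the summit offset.

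For each peak, the whole number of reads and the rate that give the deposited fold and −log10 p were solved. All 29555 peaks had a solution within 0.002, against at most 1.75% of 400 peaks per library with shuffled p-values. The solver was tested on simulated data. Sites are peaks that overlap on 1 strand. Values were computed with Python 3.11.15, numpy 2.4.6, pandas 2.3.3 and scipy 1.17.1, and copies were found with blastn among the GENCODE vM21 transcripts. Copies outside the annotation were not analysed here. Named genes were the 3 RNAs, the genes of each list with a peak in all 4 libraries, every gene of the list of other polymerase III RNAs with a peak, and the 3 nearest sites of each RNA. The RNAs and lists were chosen with earlier results of these data known. Alternatives covered depth scaling, pairing, thresholds and leaving out each library.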

Additional observations from a re-analysis of the deposited data

How the results depend on the processing

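Of the alternatives tried, the sign of the difference between the proteins changed only without depth scaling, where the log2 difference in reads became 0.34 for Rn7sk, 0.14 for Rmrp and 0.24 for Rpph1, since the Flag-MBD6 libraries hold more reads. Scaling by the median ratio over sites gave −0.42 for Rn7sk, −0.61 for Rmrp and −0.52 for Rpph1. Leaving out 1 library gave −0.79 to −0.75 for Rn7sk, −1.07 to −0.86 for Rmrp and −0.89 to −0.84 for Rpph1. With a replicate block, as paired libraries, the differences were −0.77, −0.96 and −0.86 for Rn7sk, Rmrp and Rpph1 in reads and −0.17, −0.54 and −0.52 in fold, and no direction changed. The midpoint of the peak in place of its summit gave nt 277 for Rn7sk, 200.25 for Rmrp and 238 for Rpph1. Among peaks with the summit in an exon of a gene with no coding transcript, the mean percentile of reads was 94.7, 98.8 and 96.2 and that of the background rate 98.3, 99.1 and 96.5 for Rn7sk, Rmrp and Rpph1. Asking for a peak in both libraries of at least 1 protein gave 4 genes of the 7SK particle, 2 of RNase P and MRP and 14 of the polymerase III machinery. Leaving out 1 library gave 1 to 3 genes of the 7SK particle, with Larp7 and Ccnt1 added without Flag-MBD5 replicate 2. The share of all genes under either of these looser rules was not counted, so the added genes cannot be set against it. The summit depth limits precision to the counting intervals given, and the depths were estimated from the peak lists.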
